A study of Mus musculus with 6 samples.

Results

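The tumour necrosis factor (TNF) family was examined in CD4 and CD8 double-positive (DP) thymocytes from Paxbp1 conditional knockout (cKO) mice and from controls. Members were the genes of the deposited table with a symbol beginning Tnfsf (ligands) or Tnfrsf (receptors), Traf1 to Traf7, and the genes Tnf, Lta, Ltb, Ltbr, Fasl, Cd27, Cd40, Cd40lg, Cd70, Tradd, Fadd and Ripk1. They came to 50 of the 22322 genes in the table, namely 18 ligands, 22 receptors and 10 intracellular adaptors. Of these, 44 had a count in at least 1 library, and 35 passed the filter on low counts and were tested among 11488 genes. Of the 35 tested members, 3 passed an adjusted p of 0.05 (8.57%, against 10.4% of all genes). Tnfsf11, the ligand RANKL, was 2.89-fold higher in the libraries labelled cKO, and the receptors Cd27 and Tnfrsf13b had log2 fold changes of -0.60 and -0.64.

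The libraries were made to look for transcriptional differences behind the poor survival of DP cells without Paxbp1. RNA from flow-sorted DP thymocytes was sequenced in 6 libraries, 3 control and 3 cKO, from mice aged 4 to 7 weeks, of both sexes and with no treatment. Controls were Paxbp1fl/fl littermates and cKO mice were Paxbp1fl/fl Lckcre, both on a C57BL/6 background, so that both groups carried the floxed allele and Cre is named for the cKO group alone. The Lck promoter drives Cre from the early T cell stages onward, and exon 8 of Paxbp1 is the part removed.

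TNF ligands are mostly trimers on the cell surface that can be shed, and they bind receptors of broadly different kinds. Death receptors carry a death domain and recruit proteins such as the adaptors TRADD and FADD and the kinase RIPK1. Many other receptors bind TRAF proteins and signal through NF-kB and MAP kinases, and some are decoys. In the thymus, RANKL and lymphotoxin made by thymocytes act on medullary epithelial cells, and CD27 is a costimulatory receptor carried by developing and naive T cells.

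The sequences just upstream of the RefSeq starts of the called members, and of the most abundant ligand, Ltb, are shown for orientation. RefSeq promoters (GRCm38.p6, 250 bases before to 50 after the start) were matched for 40 of the 50 members, which gave 45 promoters. For the 3 called members the 200 bases before the start are printed, and for Ltb 60 bases, from 130 to 71 bases before it, each 5′ to 3′ on the strand of the gene. They lie at chr14:78308044-78308243 on the minus strand (Tnfsf11), chr6:125237028-125237227 on the minus strand (Cd27), chr11:61126555-61126754 on the plus strand (Tnfrsf13b) and chr17:35194377-35194436 on the plus strand (Ltb). Capitals mark a match to the NF-kB consensus.
Tnfsf11 upstream: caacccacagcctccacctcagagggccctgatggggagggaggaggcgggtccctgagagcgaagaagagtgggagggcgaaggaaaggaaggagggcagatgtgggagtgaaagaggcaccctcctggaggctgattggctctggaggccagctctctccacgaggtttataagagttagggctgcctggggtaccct
Cd27 upstream: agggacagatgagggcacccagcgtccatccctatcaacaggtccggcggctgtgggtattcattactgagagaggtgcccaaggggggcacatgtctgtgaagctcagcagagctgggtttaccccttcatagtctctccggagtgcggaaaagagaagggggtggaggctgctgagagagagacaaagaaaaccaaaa
Tnfrsf13b upstream: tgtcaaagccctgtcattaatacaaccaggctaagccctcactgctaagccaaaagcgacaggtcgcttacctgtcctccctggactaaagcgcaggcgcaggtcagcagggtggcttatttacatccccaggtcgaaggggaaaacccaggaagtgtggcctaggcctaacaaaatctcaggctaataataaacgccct
Ltb upstream: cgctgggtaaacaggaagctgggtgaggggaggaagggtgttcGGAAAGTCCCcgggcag

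Both strands of each window of 300 bases were searched for the NF-kB consensus, for TGTGGT (RUNX) and for CAGCTG (an E-box). The NF-kB consensus lay in 4 of the 45 member promoters (8.89%) and in 4.51% of all 32851 promoters. TGTGGT was found in 9 of 45 (20%) against 16.8% of all, and CAGCTG likewise in 9 of 45 against 16.3%. Ltb held the NF-kB match, whereas the windows of Tnfsf11, Cd27 and Tnfrsf13b held none of the 3 motifs. A match is a run of letters and not a bound site, and the absence of a match covers this window only.

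Library totals ran from 18963775 to 26252248 counts. Levels are given as CPM, the count scaled to a common library size with TMM factors of 0.981 to 1.01, and a single count came to between 0.0388 and 0.0520 CPM. Paxbp1 itself had a count of 774, 318 and 400 in controls 1, 2 and 3, and of 851, 905 and 1075 in the libraries labelled cKO (log2 fold change 0.92, SE 0.33, adjusted p = 0.0977). Its count thus did not fall in the libraries labelled cKO, and since only exon 8 is floxed, a count over the whole gene does not check the genotype labels. The 12 DP thymocyte markers were all present, and their summed level was 16136 to 18168 CPM in controls and 11978 to 13790 CPM in the libraries labelled cKO, with 4 of them called lower (Rag1, Cd3e, Lck, Cd8b1) and 0 higher. Nothing in the labels says that the libraries of a group came from separate animals, so p-values measure the spread between these libraries. In sorted bulk RNA, fewer cells of a type and less RNA per cell cannot be told apart.

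By level, in deposited FPKM (read counts adjusted for gene length and library size), the ligands and receptors each had 1 member far above the rest. Among ligands, Ltb averaged 99.9 FPKM over the 6 libraries, ahead of Tnfsf11 at 15.2, Tnf at 4.02, Tnfsf10 at 2.93 and Tnfsf9 at 2.57. Among receptors, Cd27 averaged 299.6 FPKM, and Tnfrsf13b (37.4), Tnfrsf18 (28.3), Tnfrsf1a (26.6) and Tnfrsf26 (23.2) followed. The ranges of Tnfrsf18, Tnfrsf1a and Tnfrsf26 overlapped, so their order is not fixed by these libraries. The adaptors were expressed throughout, from Traf4 at 74.3 FPKM and Traf2 at 70.8 to Traf3 at 3.35 and Traf5 at 2.06. Traf4 and Traf2 overlapped, and in the libraries labelled cKO Traf2 had the higher mean (79.7 against 75.5 FPKM).

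**Figure D1:**
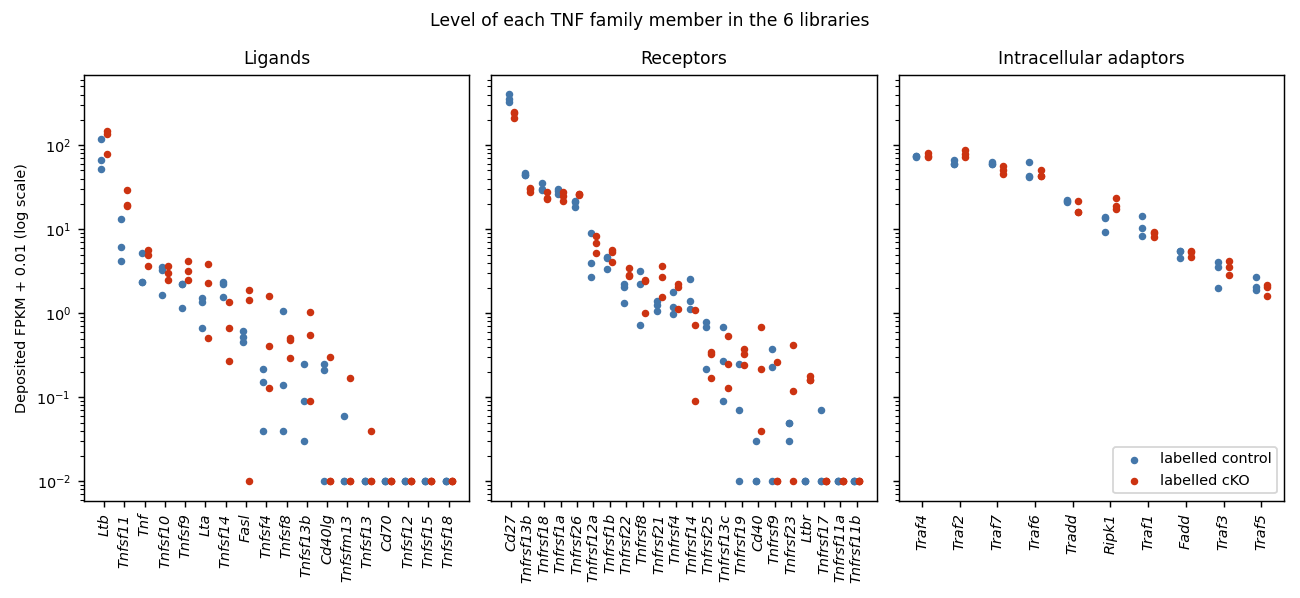
Level of each of the 50 members as deposited FPKM + 0.01 (log axis), with 1 point per library, blue for control and red for the libraries labelled cKO, ordered by mean level within each role. Ltb and Cd27 lead their roles, Traf4 and Traf2 overlap at the top of the adaptors, all 10 adaptors are above 1 FPKM, and 6 ligands and receptors sit at 0 in every library.

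Several ligands and receptors that bind each other stood at very different levels. RANKL (Tnfsf11) was expressed at 15.2 FPKM, while its signalling receptor Tnfrsf11a and its decoy Tnfrsf11b had 0 counts in all libraries. Cd27 was the most abundant receptor, and its ligand Cd70 had 0 counts. Ltb was abundant, and the lymphotoxin receptor Ltbr reached only 8 counts in its highest library. The reverse held for Tnfrsf18 (GITR) at 28.3 FPKM, whose ligand Tnfsf18 was at 0. Of the receptors for BAFF (Tnfsf13b) and APRIL (Tnfsf13), Tnfrsf13b averaged 37.4 FPKM, Tnfrsf13c 0.317 FPKM, and Tnfrsf17 had 1 count in 6 libraries. Tnf and both of its receptors were present, with Tnfrsf1a at 26.6 and Tnfrsf1b at 4.62 FPKM.

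Control and cKO libraries were then compared with edgeR's quasi-likelihood test over all 11488 genes. At an adjusted p below 0.05, 3 of 35 tested members were called (8.57%), against 10.4% of all genes tested, so the share called was close to the background. Of these, 1 was higher (4.47% of all genes were) and 2 were lower (5.89% of all genes were). With an absolute log2 fold change above 1 as a further condition, 1 member was higher (1.53% of all genes) and 0 were lower (1.23% of all genes). The median log2 fold change was 0.03 over the tested members and -0.0017 over all genes, with 19 members above 0 and 16 below. The members were measured less precisely than most genes, with a median SE of 0.34 against 0.19. At an unadjusted p below 0.05 there were 11 members (31.4%), against 27.9% of all genes. DESeq2 called 5 members (14.3%), the same 3 with Ripk1 and Tnfrsf21, against 16.7% of all genes.

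**Figure D2:**
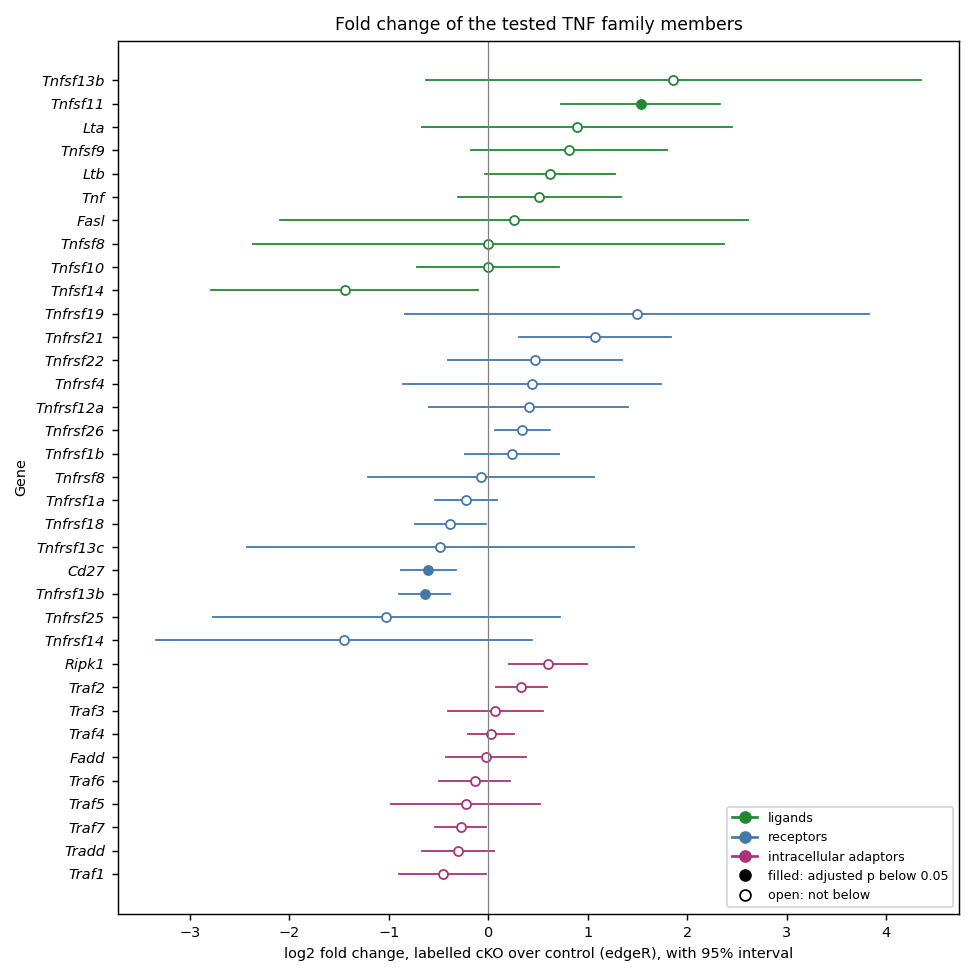
Log2 fold change of the 35 tested members, labelled cKO over control, with 95% intervals from edgeR, grouped by role (colour) and filled where the adjusted p is below 0.05. Only Tnfsf11, Cd27 and Tnfrsf13b are filled, and the widest intervals belong to members of low count such as Tnfsf13b, Tnfsf8 and Fasl.

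Among the ligands, 10 of 18 were tested. Of these, 8 had a log2 fold change above 0 (5718 of 11488 among all genes), and 1 was called (10.4% of all genes). Tnfsf11 (ENSMUSG00000022015, chr14:78277445-78308043, minus strand, GRCm38) encodes RANKL, which drives the maturation of medullary thymic epithelium and, in bone, of osteoclasts. Its level was 28.9, 9.36 and 13.9 CPM in control libraries 1, 2 and 3 and 65.6, 42.7 and 42.1 CPM in those labelled cKO. All 3 cKO libraries lay above all 3 controls, and control 1 and cKO 1 were the highest of their groups. The mean rose from 17.4 ± 10.3 to 50.2 ± 13.4 CPM (S.D., n = 3 per group), and the log2 fold change was 1.53 (SE 0.36, edgeR adjusted p = 0.0268). The call was lost on leaving out control 2, control 3, cKO 1 or cKO 3, with adjusted p values up to 0.101 and log2 fold changes no lower than 1.23. A call was kept without control 1, where the log2 fold change was 2.10, and without cKO 2.

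Ltb, the membrane-anchored lymphotoxin chain that pairs with Lta, was measured at 135, 77.3 and 61.3 CPM in controls and 158, 90.6 and 171 CPM in the libraries labelled cKO. The groups overlapped, because control 1 lay above cKO 2, and the test was not passed (log2 fold change 0.62, SE 0.30, adjusted p = 0.203). Without control 1 the log2 fold change was 1.01 with an adjusted p of 0.0214. This was the 1 of 6 omissions below 0.05, and the others gave log2 fold changes down to 0.40 and adjusted p values up to 0.502. Other ways of processing all 6 libraries put Ltb below 0.05 in 0 of 8 cases. Tnf, the founding cytokine of the family, gave 8.40, 3.91 and 3.96 CPM in controls and 9.08, 5.88 and 8.17 CPM in those labelled cKO, with control 1 inside the cKO range (log2 fold change 0.51, adjusted p = 0.406). Lta, the soluble lymphotoxin chain, stood at 1.87, 0.925 and 2.14 CPM against 5.30, 0.677 and 3.19 CPM (log2 fold change 0.89, adjusted p = 0.448). These 3 genes are neighbours within 10913 bases of chromosome 17 (35194439 to 35205351), and cKO 2 was the lowest of the cKO libraries for all 3.

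The place of control 1 and cKO 2 was then counted more widely. Among the 19 members with a log2 fold change above 0, control 1 was the highest control in 9 (47.4%) and cKO 2 the lowest cKO library in 11 (57.9%), against 41.3% and 41.6% of all such genes. The share for control 1 was thus close to the background.

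Tnfsf14 (LIGHT), a ligand of HVEM and of the lymphotoxin receptor, ran the other way, with 4.31, 4.11 and 2.91 CPM in controls and 2.47, 0.469 and 1.20 CPM in those labelled cKO. The groups did not overlap, but the test was not passed (log2 fold change -1.44, SE 0.61, adjusted p = 0.153). Tnfsf9 (4-1BB ligand) also did not overlap, with 2.80, 1.49 and 2.91 CPM against 4.11, 3.12 and 5.45 CPM (log2 fold change 0.81, adjusted p = 0.265). Of its exonic sequence, 14.9% is shared with a long noncoding RNA on the other strand. Tnfsf10, the death ligand TRAIL, averaged 13.9 CPM in both groups (log2 fold change -0.0028, 95% interval -0.71 to 0.71). The interval for Fasl, which triggers death through FAS, ran from -2.10 to 2.61, with counts of 19, 15 and 29 in controls and 0, 41 and 29 in those labelled cKO. Tnfsf8 (CD30 ligand) was as poorly fixed, with an interval from -2.37 to 2.37. Tnfsf13b (BAFF), a B cell survival factor that myeloid cells make, reached 0.0777 to 0.830 CPM in controls and 0.137 to 1.85 CPM in those labelled cKO (log2 fold change 1.86, adjusted p = 0.316).

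Of 22 receptors, 15 were tested, 7 with a log2 fold change above 0 and 8 below. Of these, 2 were called, both lower in the libraries labelled cKO (5.89% of all genes were called lower). Tnfrsf13b (ENSMUSG00000010142, chr11:61126755-61149372, plus strand) encodes TACI, the receptor for BAFF and APRIL known mainly from B cells. It stood at 111, 122 and 116 CPM in controls and at 76.1, 77.2 and 71.0 CPM in those labelled cKO. The libraries of each group lay close together and far from the other group. The mean fell from 117 ± 5.46 to 74.8 ± 3.31 CPM, a log2 fold change of -0.64 (SE 0.11, adjusted p = 0.00968), and it remained below 0.05 in 5 of 6 fits that left out 1 library (adjusted p = 0.0680 without cKO 3, where only 1.02% of all genes were called).

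Markers of B cells did not share 1 direction. The summed level of 6 such genes, of which 2 were tested, was 41.3 to 46.0 CPM in controls and 26.3 to 31.2 CPM in those labelled cKO, nearly all of it from Cd79b, which fell (42.9 to 26.4 CPM, adjusted p = 0.0194). The other tested gene, Blk, had a log2 fold change of 2.04 (adjusted p = 0.146). The untested genes were low, with Pax5 at 0 in 5 of 6 libraries and at most 0.822 CPM of Ms4a1 in any library. Their counts in controls and in those labelled cKO were 4, 2 and 0 against 18, 11 and 0 for Ms4a1, 4, 0 and 2 against 23, 0 and 8 for Cd79a, and 1, 15 and 1 against 3, 2 and 0 for Ebf1. The part of B cells in the value of Tnfrsf13b was not tested.

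Cd27 (ENSMUSG00000030336, chr6:125232622-125237010, minus strand), the receptor for CD70, was measured at 443, 567 and 501 CPM in controls and at 342, 352 and 301 CPM in those labelled cKO. Every control lay above every cKO library. The mean fell from 504 ± 62.0 to 332 ± 27.4 CPM (log2 fold change -0.60, SE 0.12, adjusted p = 0.0166). The call was lost without control 2 (adjusted p = 0.0737), cKO 1 (0.0597) or cKO 3 (0.0976), with log2 fold changes from -0.69 to -0.51 over all 6 omissions. The 12 DP markers lay on the same side, since all had a log2 fold change below 0, with a median of -0.39, and the part of this shift in Cd27 and Tnfrsf13b was not tested.

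**Figure D3:**
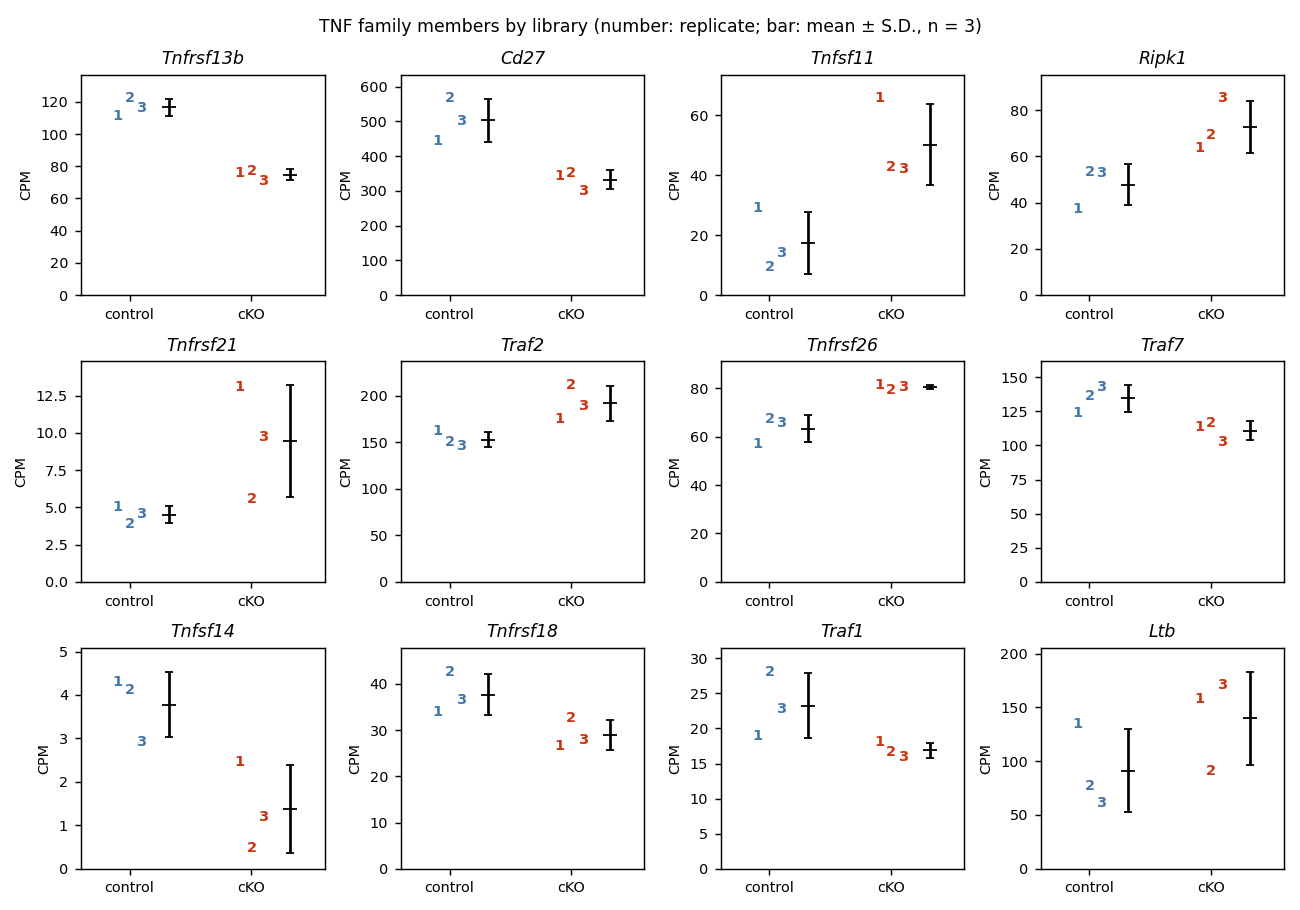
Level in CPM of 12 members, the 11 with an unadjusted p below 0.05 and Ltb, with each library shown by its replicate number (blue control, red labelled cKO) and the mean ± S.D. (n = 3) as a bar. Tnfrsf13b and Cd27 show compact groups that do not meet, Tnfsf11 shows a wider spread, and Ltb overlaps through control 1 and cKO 2.

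Of the other receptors, Tnfrsf21 (death receptor 6) stood at 5.03, 3.91 and 4.58 CPM in controls and 13.1, 5.57 and 9.74 CPM in those labelled cKO. The groups did not overlap (log2 fold change 1.07, SE 0.34, adjusted p = 0.0734). Other ways of processing all 6 libraries put Tnfrsf21 below 0.05 in 1 of 8 cases (DESeq2, adjusted p = 0.0327, the others up to 0.1126). Leaving out 1 library put it below in 1 of 6 (0.0370 without cKO 2, the others up to 0.2455). Tnfrsf18 (GITR), a costimulatory receptor, gave 33.8, 42.6 and 36.5 against 26.5, 32.5 and 27.8 CPM (log2 fold change -0.38, adjusted p = 0.157), and 27.2% of its exonic sequence lies opposite an antisense gene whose reads could not be told apart without strand. Tnfrsf26 gave 57.1, 67.3 and 65.7 against 81.2, 79.4 and 80.6 CPM (log2 fold change 0.34, adjusted p = 0.1005).

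Tnfrsf26 lies with its paralogs Tnfrsf22 and Tnfrsf23 within 78214 bases of chromosome 7, and reads shared between such copies make their counts uncertain. Tnfrsf22, a decoy receptor for TRAIL, had a log2 fold change of 0.47 (adjusted p = 0.476). Tnfrsf1a (TNFR1), the death receptor for TNF, gave 64.0, 63.0 and 56.3 CPM in controls and 58.8, 51.5 and 46.4 CPM in those labelled cKO (log2 fold change -0.23, 95% interval -0.54 to 0.09). Tnfrsf1b (TNFR2), which signals through TRAF2, gave 0.24 with an interval from -0.23 to 0.71. The remaining 7 tested receptors (Tnfrsf4, Tnfrsf8, Tnfrsf12a, Tnfrsf13c, Tnfrsf14, Tnfrsf19 and Tnfrsf25) had log2 fold changes between -1.45 and 1.496, none with an adjusted p under 0.301. Tnfrsf19 was the one among them whose groups did not overlap, at 0.674, 0.257 and 0 CPM in controls and 0.867, 0.937 and 0.785 CPM in those labelled cKO.

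All 10 intracellular adaptors were tested, 4 with a log2 fold change above 0 and 6 below. By edgeR, 0 were called at an adjusted p below 0.05 (10.4% of all genes), and 4 had an unadjusted p below 0.05 (27.9% of all genes). DESeq2 called 1 (16.7% of all genes). That 1 was Ripk1, the kinase at the branch between survival and death signals from TNFR1. It stood at 37.3, 53.4 and 52.6 CPM in controls and 63.4, 69.0 and 85.2 CPM in those labelled cKO. The groups did not overlap (log2 fold change 0.60, SE 0.18, adjusted p = 0.0553). Other ways of processing all 6 libraries put it below 0.05 in 7 of 8 cases (adjusted p 0.0135 to 0.0520), and leaving out 1 library put it below in 0 of 6 (0.0649 to 0.224).

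Traf2, the adaptor that brings the ubiquitin ligases BIRC2 and BIRC3 to TNF receptors, gave 162, 150 and 146 CPM in controls and 175, 212 and 189 CPM in those labelled cKO (log2 fold change 0.33, SE 0.12, adjusted p = 0.0955). Traf7, which is distant from the other TRAFs and binds MEKK3, gave 124, 136 and 143 against 114, 116 and 103 CPM (log2 fold change -0.28, adjusted p = 0.152). Traf1, itself an NF-kB target and a partner of TRAF2, gave 18.9, 28.1 and 22.8 against 18.1, 16.7 and 15.9 CPM (log2 fold change -0.46, adjusted p = 0.160). In each of these 3 the groups did not overlap and the test was not passed. Over all tested members, 13 of 35 did not overlap (37.1%), against 33.0% of all genes, with 7 higher (15.7% of all genes) and 6 lower (17.3% of all genes).

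Traf4, with the highest mean FPKM of the adaptors over all 6 libraries, gave 153, 155 and 151 CPM in controls and 165, 147 and 156 CPM in those labelled cKO (log2 fold change 0.03, interval -0.21 to 0.26). Traf6, which serves RANK, CD40 and Toll-like receptors, gave 386, 263 and 271 against 263, 259 and 313 CPM, where control 1 alone stood high (log2 fold change -0.14, adjusted p = 0.623). Fadd, the bridge from death receptors to caspase-8, had a log2 fold change of -0.03 with an interval from -0.43 to 0.38. The values were -0.30 (-0.67 to 0.06) for Tradd, the TNFR1 adaptor, 0.07 (-0.41 to 0.55) for Traf3, a brake on noncanonical NF-kB, and -0.23 (-0.98 to 0.52) for Traf5. These intervals bound the changes that the libraries leave possible and do not show equal levels.

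There were 15 members below the filter on low counts, 9 with a count and 6 with none (Cd70, Tnfsf12, Tnfsf15, Tnfsf18, Tnfrsf11a and Tnfrsf11b). For the latter, 0 of 127438184 counts allows up to 0.0235 CPM over the 6 libraries together, a limit that covers counting error only. Ltbr, which sets up lymphoid tissue through stromal and myeloid cells, had 0 counts in each control and 8, 6 and 7 in those labelled cKO (adjusted p = 0.119 in edgeR without the filter). With the control total set to a floor of 3 counts the ratio was 7.29, a value that leaves out the counting error of the cKO libraries. Cd40, the receptor for CD40 ligand on antigen-presenting cells, had 0, 1 and 0 counts in controls and 21, 5 and 1 in those labelled cKO, of which 21 came from cKO 1 (adjusted p = 0.201). Tnfsf4 (OX40 ligand) had 5, 1 and 10 counts against 5, 14 and 63, of which 63 came from cKO 3 (adjusted p = 0.217).

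The other members with a count were Tnfrsf9 (15, 8 and 0 against 11, 0 and 0), Tnfrsf23 (1, 1 and 2 against 8, 0 and 13), Cd40lg (0, 5 and 8 against 8, 0 and 0) and Tnfsfm13 (2, 0 and 0 against 0, 0 and 6), with Tnfrsf17 and Tnfsf13 at 1 count each. Tnfsfm13 is a read-through of the neighbours Tnfsf12 and Tnfsf13 and holds 48.3% and 60% of their exonic sequence, so the counts of these 3 are uncertain. Their groups overlapped, so no order between control and cKO can be read from them.

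Markers of other cell types were also compared. Of 16 macrophage markers, 12 were tested, 10 had a log2 fold change above 0 and 6 were called higher, with a summed level of 26.4 to 49.5 CPM in controls and 67.1 to 92.0 CPM in those labelled cKO. Adgre1 (F4/80) was at 0 in all controls and at 2.28, 2.19 and 2.40 CPM in those labelled cKO, while Mertk and Marco were at 0 in all 6 libraries. The NK and innate T cell list summed to 34.8 to 76.1 against 138 to 165 CPM, with 1 of 4 tested genes called (Gzma, higher) and Klrb1c at 0 throughout, and nearly all of the sum came from Gzma (means of 55.6 and 148 CPM). The list for the earlier double-negative and immature single-positive (DN and ISP) stages summed to 151 to 179 against 237 to 253 CPM, with Hes1 and Il2ra called higher among 6 tested, of which 3 had a log2 fold change above 0 and 3 below (median 0.12). The part of these markers in the values of Ltbr, Cd40, Tnfsf4, Tnfsf13b and Tnfsf11 was not tested.

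Other marker lists gave no sum that was higher in every library labelled cKO. The dendritic cell list, 3 of 8 tested and 0 called, summed to 1194 to 1479 against 945 to 1270 CPM. Nearly all of it came from Ccr9 (means of 1370 and 1120 CPM), so this sum does not show the direction of the other genes. Zbtb46 (log2 fold change 0.48, edgeR adjusted p = 0.623) and Flt3 (0.80, 0.670) lay above 0 with overlapping groups. Among the untested genes, Xcr1 and Siglech had higher means in those labelled cKO, Itgax and Cd209a had lower ones, and Clec9a was at 0. The part of dendritic cells in Cd40 and Tnfsf4 was not tested. The mature single-positive list (6 of 9 tested, 0 called) summed to 323 to 489 against 261 to 357 CPM, the erythroid list to 17.9 to 90.4 against 1.78 to 31.0 CPM, and the thymic epithelial and stromal list to 11.3 to 14.0 against 9.91 to 16.1 CPM, while no neutrophil gene was tested.

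Genes that act with TNF receptors but lie outside the family were read from a list of 50, of which 45 were tested. Of these, 9 were called (20%, against 10.4% of all genes), 6 higher (13.3%, against 4.47%) and 3 lower (6.67%, against 5.89%). The median log2 fold change was 0.06. The list was set up with earlier results of these data known, so its share is a description. The 3 with the largest rises are NF-kB subunits or an NF-kB inhibitor. Nfkbie, an inhibitor that holds NF-kB in the cytoplasm, gave 122, 92.1 and 95.6 CPM in controls and 338, 189 and 322 CPM in those labelled cKO (log2 fold change 1.46, adjusted p = 0.00549). Nfkb2, the p100 precursor of the noncanonical arm on which RANK, CD40 and the lymphotoxin receptor converge, gave 22.0, 12.9 and 16.9 against 71.6, 32.9 and 67.1 CPM (log2 fold change 1.73, adjusted p = 0.0088). Relb, its partner, gave 1.40, 2.16 and 3.92 against 11.7, 6.20 and 15.6 CPM (log2 fold change 2.15, adjusted p = 0.0175). The groups did not overlap in any of these 3, and cKO 2 was each time the lowest of the cKO libraries. Over the tested list the groups did not overlap in 33.3% of genes, against 33.0% of all genes.

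Smaller rises were called for Birc3, a ubiquitin ligase of the TNFR1 complex (log2 fold change 0.83, adjusted p = 0.0364), for Tank, a TRAF-binding regulator (0.58, 0.0257), and for Rela, the canonical NF-kB subunit (0.46, 0.0384). Lower were Traf3ip3, a TRAF3 partner needed in thymocyte development (-0.78, 0.00991), and 2 subunits of the kinase that frees NF-kB, Ikbkg (-0.56, 0.0384) and Ikbkb (-0.47, 0.0365). Close to the threshold were Nfkbia (1.24, 0.0521) and Rel (1.37, 0.0553), whose groups overlapped through control 1 and cKO 2. Fas, the death receptor for FASL, gave 144, 133 and 106 CPM in controls and 96.8, 93.6 and 65.7 CPM in those labelled cKO (-0.58, 0.0588), without overlap. Casp8, the caspase that FADD recruits (-0.28, 0.276), and Ripk3, the partner of RIPK1 in necroptosis (0.09, 0.720), were not called, and Mlkl, which carries out necroptosis, was below the filter. Of the pathway list, 2 genes were called higher without control 2, 2 without cKO 1 and 1 without cKO 3, where 0.359% to 1.53% of all genes were, and 1 gene was called lower without control 2, control 3, cKO 1 or cKO 2 (1.98% to 3.50% of all genes) and 0 without cKO 3 (0.666%).

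**Figure D4:**
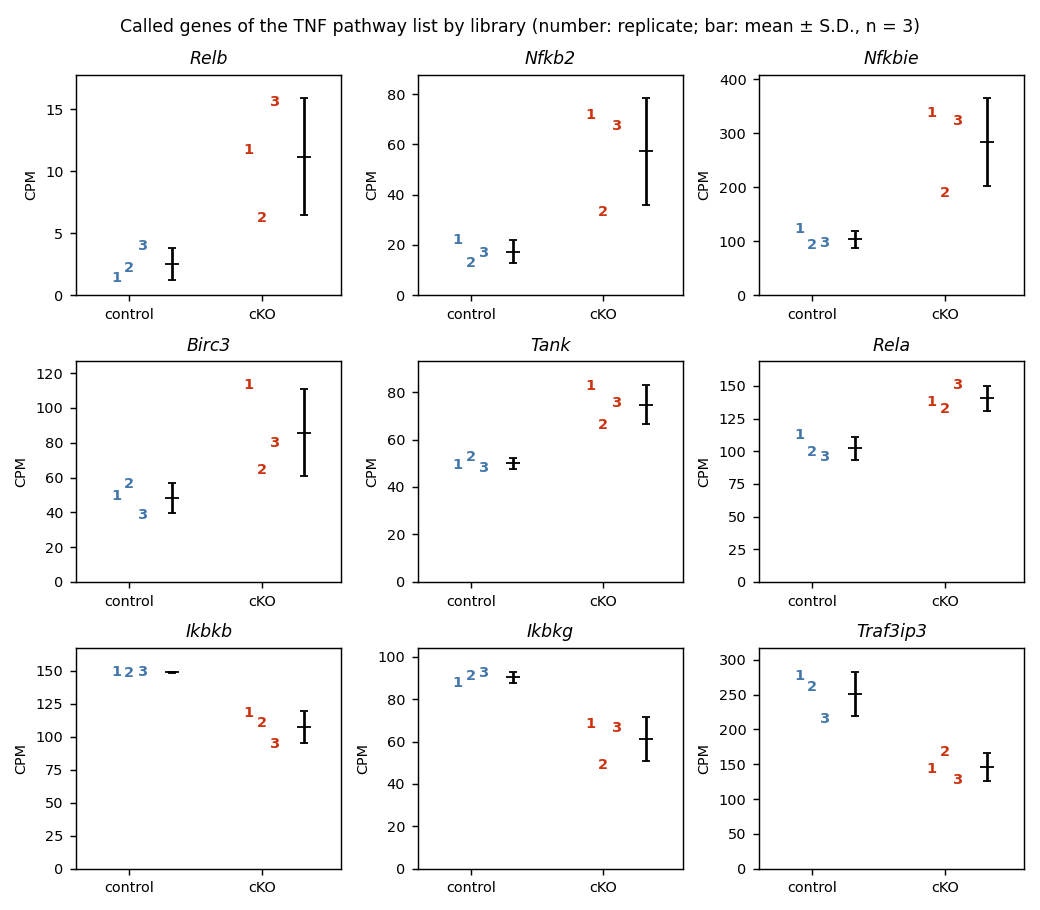
Level in CPM of the 9 called genes of the TNF pathway list outside the family, with each library shown by its replicate number (blue control, red labelled cKO) and the mean ± S.D. (n = 3) as a bar. Relb, Nfkb2 and Nfkbie are higher in every library labelled cKO with cKO 2 lowest, and Ikbkb, Ikbkg and Traf3ip3 are lower in every one.

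**Figure D5:**
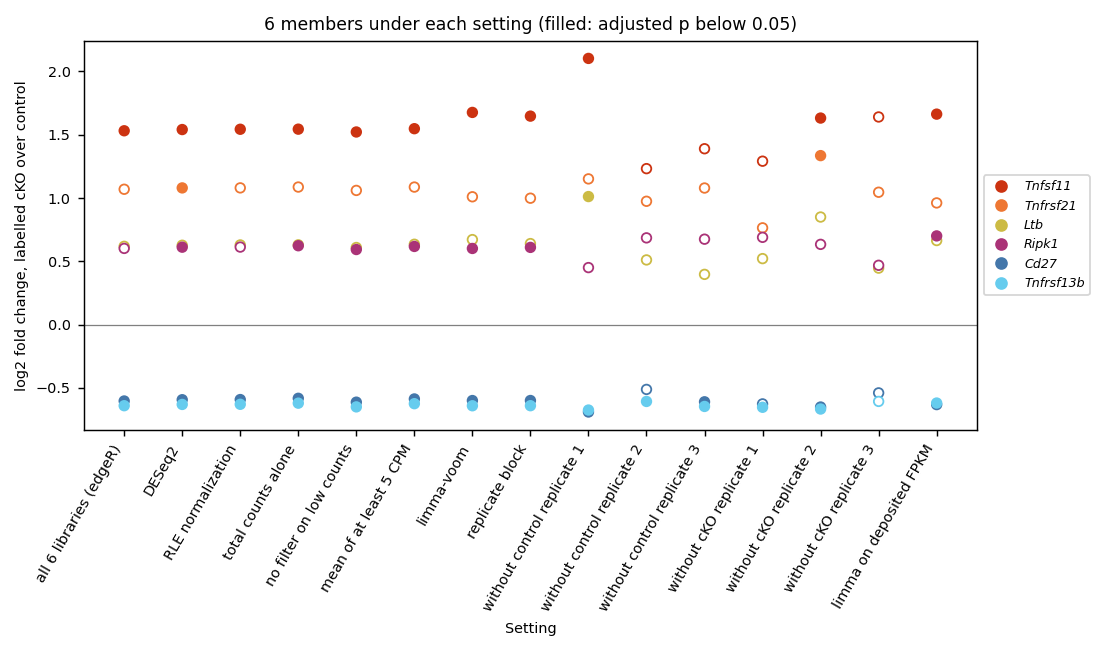
Log2 fold change, labelled cKO over control, of 6 members under 15 settings, with filled points where the adjusted p is below 0.05. The direction is the same under every setting shown, Tnfrsf13b is open only without cKO replicate 3, and no point is filled for any member in that setting.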

How the data were processed

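RNA of sorted DP thymocytes was sequenced in 6 libraries, 3 control and 3 cKO, and genotype and replicate number follow the labels. A single table was deposited by the authors, with a raw read count per gene and library and FPKM values, which the authors scaled by gene length and by library size. The submitters' processing notes list fastp 0.18.0, Bowtie2 2.2.8, HISAT2, StringTie 1.3.1 and RSEM, without their roles. For the genome build and annotation, none is named in the sources used here. Counts were whole numbers but may be rounded estimates, since the length implied by count and FPKM varied between libraries (CV above 5%) for 20.8% of 8621 genes. The authors' group means, log2 ratios, p-values and FDR were not used. The methods and the labels name different library kits.

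The comparison used edgeR 4.0.16 in R 4.3.3 (filterByExpr, minimum count 10 and total 15; TMM; quasi-likelihood test on genotype; Benjamini-Hochberg over 11488 genes). SE is the absolute log2 fold change over the root of F, and intervals are 95%. Scripts were tested on simulated data. No libraries of the same group were duplicates (chi-square per degree of freedom 19.8 to 68.3), and libraries of different groups were not compared in this way. Gene positions are from GRCm38. Alternatives were DESeq2 1.42.0, RLE factors, total counts, no filter, a mean of 5 CPM, limma-voom (limma 3.58.1), a replicate block, leaving out each library, and, chosen after seeing the data, limma on log2(FPKM + 0.1).

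Members and lists were chosen with earlier results of these data known. Values per library are given for members with an adjusted or unadjusted p below 0.05 and for the 3 highest by FPKM in each role, and called genes of the pathway list are named. Other genes named were chosen after their values were seen. A gene that the symbol rule matches and a marker gene are not reported here.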

Additional observations from a re-analysis of the deposited data

How the results depend on the processing

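Of 195 log2 fold changes of 14 named members recomputed under alternatives, 175 kept their direction and their side of the threshold, and 1 reversed, namely Traf4 without cKO replicate 1 (log2 fold change -0.016, adjusted p = 0.961; -0.016 to 0.063 over the 6 omissions). Called members that were higher numbered 1 in the reported fit (4.47% of all genes) and 3 with DESeq2 (8.22% of all genes). They numbered 2 with total counts alone, no filter, a mean of at least 5 CPM, limma-voom, a replicate block and limma on FPKM (3.94% to 6.79% of all genes). With the fold condition as well there were 2 with DESeq2 (2.30% of all genes). Leaving out 1 library gave 0 to 3 members higher, 0 to 2 lower and 0 to 2 higher with the fold condition. For the pathway list it gave 1 to 9 genes higher and 0 to 4 lower. Of all genes, 0.359% to 8.42% were then higher, 0.666% to 8.68% lower and 0.239% to 2.27% higher with the fold condition. Tnfsf11 was lost without control 2, control 3, cKO 1 or cKO 3, Cd27 without control 2, cKO 1 or cKO 3, and Tnfrsf13b without cKO 3 (120 genes called in all). Without control 1, Ltb and Traf2 (adjusted p = 0.0453) were also called. Deviations from the group mean were weakly correlated between libraries of the same replicate number (0.062, 0.079 and -0.0045). These values do not settle whether the libraries were paired, since other pairs of libraries were not compared. With the replicate block, Ripk1 had an adjusted p of 0.0351, and the 3 called members were called as before. Members of low count had intervals several log2 units wide, and the cause of the changes between settings was not tested.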
